A study of Mus musculus with 2 samples.

Results

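The genes described here carry thyroid hormone signalling in the mouse heart: the receptor genes Thra and Thrb, the deiodinase genes Dio1, Dio2 and Dio3, the transporter gene Slc16a10, the corepressor gene Ncor1 and the cofactor gene Thrap3. These 8 genes, chosen by symbol, were among 55536 annotated genes measured, and all 8 were found. Total RNA from the hearts of 2 male B6CASTF1/J mice was sequenced, with 1 library from 300 ng of RNA per animal. This strain is an F1 hybrid, and both mice were 25 days old. The labels number the animals 3 (replicate 1) and 4 (replicate 2) but give both the same donor identifier, and they name no treatment and no other group, so levels are described and no groups are compared. Spike-in RNAs were added to both libraries.

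Thyroid hormone enters cells through membrane transporters, and deiodinases, which are selenoproteins, turn the prohormone thyroxine into active triiodothyronine or inactivate both. Triiodothyronine binds nuclear receptors that sit on DNA with retinoid X receptors. Without hormone these receptors recruit corepressors, and with hormone they recruit coactivators. In heart muscle the hormone is known for setting the balance of the myosin heavy chains and of calcium-handling proteins.

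The sequences at which the products of these genes are decided are shown first, from the mm10 assembly and the GENCODE M21 annotation. Thra lies on the plus strand of chromosome 11 (chr11:98740638-98769006), and its forms alpha 1 and alpha 2 share 1110 coding bases, up to position 98764405. The alpha 1 model (Thra-202, 410 residues) then reads on within the same exon for 120 coding bases, which complete the hormone-binding domain. The alpha 2 model (Thra-201, 492 residues) splices to a later exon with 366 coding bases of its own, and the product is known not to bind the hormone. A model without an annotated stop, Thra-203, splices 117 bases further into that later exon. In the 3 coding sequences below, lower case marks the last 30 shared bases (chr11:98764376-98764405). Capitals mark what follows: for alpha 1 the rest of the coding sequence with its stop (chr11:98764406-98764528), for alpha 2 the first 150 bases of its own (chr11:98768157-98768306) and for Thra-203 all 130 bases of its last exon (chr11:98768274-98768403).
Thra alpha 1: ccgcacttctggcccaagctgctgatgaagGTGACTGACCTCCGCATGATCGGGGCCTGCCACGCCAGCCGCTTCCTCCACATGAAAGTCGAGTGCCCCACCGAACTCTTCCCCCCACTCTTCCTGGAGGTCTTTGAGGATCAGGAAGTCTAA
Thra alpha 2: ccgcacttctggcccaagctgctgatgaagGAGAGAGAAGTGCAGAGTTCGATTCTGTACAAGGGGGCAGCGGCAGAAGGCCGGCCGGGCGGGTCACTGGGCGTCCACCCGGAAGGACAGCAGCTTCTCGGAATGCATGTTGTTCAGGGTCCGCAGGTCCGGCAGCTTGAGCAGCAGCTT
Thra-203: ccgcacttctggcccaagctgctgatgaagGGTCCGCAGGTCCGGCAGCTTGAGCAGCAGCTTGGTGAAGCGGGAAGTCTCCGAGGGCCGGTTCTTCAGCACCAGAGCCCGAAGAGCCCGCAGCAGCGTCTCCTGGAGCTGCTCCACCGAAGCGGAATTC

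Deiodinases place selenocysteine in their active site by reading a TGA codon that would otherwise stop translation. The coding bases around that codon are shown with TGA in capitals for Dio1 (codon 126 of Dio1-201 counted from the start codon, chr4:107297679-107297723, minus strand), Dio2 (codon 130 of Dio2-201, chr12:90729802-90729846, minus strand) and Dio3 (codon 170 of Dio3-202, chr12:110279718-110279762, plus strand). Dio2 has 2 annotated selenocysteine codons, of which the one at codon 130 is shown. Aligned without gaps over these 45 bases, Dio1 and Dio2 were identical at 25 positions, Dio1 and Dio3 at 26 and Dio2 and Dio3 at 28. These numbers include the bases of the TGA, on which each stretch was centred.
Dio1: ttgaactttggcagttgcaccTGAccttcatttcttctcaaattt
Dio2: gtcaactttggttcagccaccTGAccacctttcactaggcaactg
Dio3: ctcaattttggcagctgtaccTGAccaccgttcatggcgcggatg

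The libraries held 38253821 (replicate 1) and 40655101 (replicate 2) estimated gene counts, and where a gene had no counts its true level may still reach 3 counts, or 0.0784 CPM (counts scaled to a common total) in replicate 1 and 0.0738 CPM in replicate 2. Levels are compared between genes in TPM, an abundance corrected for transcript length and library total. They come from the gene tables (the first quantification), and a second quantification of the same libraries is set beside them. Where no heart is named, a value is the mean of both ± SD (n = 2). The tissue matched its label: all 6 heart muscle markers stood above 1 TPM in both hearts, with a median of 4261 TPM and Myh6 at 8557 ± 353 TPM. The 5 fibroblast, 5 endothelial and 5 macrophage markers also stood above 1 TPM in both hearts, with medians of 69.0, 43.1 and 14.4 TPM. The libraries differed in fat: 5 of 6 adipocyte markers were more than 2-fold higher in replicate 1, and the 6 summed to 239 TPM there and 34.6 TPM in replicate 2. In whole-tissue RNA, fewer cells of a type and less RNA per cell cannot be told apart.

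Most of these genes were readily measured and the deiodinases were low: 5 of the 8 genes reached 1 TPM in both hearts, a level reached by 49.7% of the 21951 protein-coding genes. From highest to lowest mean the order was Ncor1, Thra, Thrap3, Thrb, Slc16a10, Dio2, Dio3 and Dio1. Between neighbours the values of the hearts did not overlap, except for Dio3 and Dio1. The order of Thra and Thrap3 was not settled, because in the second quantification their values overlapped and their means changed places. By the deposited posterior mean TPM Dio1 came first among the deiodinases, at 0.475, above Dio2 at 0.265 and Dio3 at 0.055. That estimate lay above 0 even for genes without counts: Pax8 had 0.34 in replicate 1 and 0.32 in replicate 2. Dio1 had 1 and 0 counts, against 41 and 63 for Dio2. The deposited credibility intervals of Ncor1 and Thra overlapped in each heart, as did those of Thrb and Slc16a10.

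**Figure D1:**
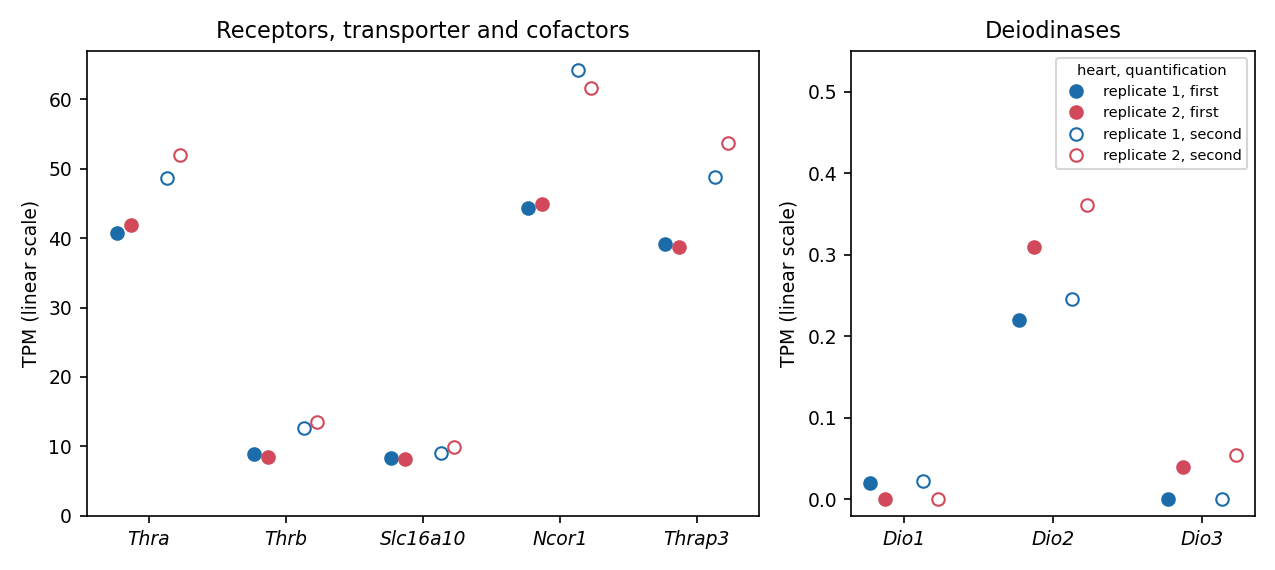
Level (TPM, linear axes with different ranges) of the 8 genes, with 1 point per heart. Filled points are the first and open points the second quantification. Ncor1, Thra and Thrap3 lie near 40 TPM or above, Thrb and Slc16a10 between 8.23 and 13.5 TPM, and the deiodinases below 1 TPM.

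Thra, the predominant receptor gene of heart muscle in general knowledge, stood at 40.7 TPM in replicate 1 and 41.8 TPM in replicate 2 (41.3 ± 0.778), from 2719 and 2997 estimated counts. Its mean TPM exceeded that of 94.5% of protein-coding genes. Thrb (chr14:17660261-18038090, plus strand), the second receptor gene, stood at 8.88 and 8.52 TPM (8.70 ± 0.255), from 1016 and 996 counts. Thra was therefore the higher receptor gene in both hearts, with a log2 ratio of TPM + 0.1 over Thrb of 2.23 ± 0.07, and it made up 82.6% ± 0.691 of the TPM of both genes together. The second quantification put this log2 ratio at 1.94 and the Thra share at 79.4% ± 0.0259.

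The alpha 1 and alpha 2 forms of Thra, whose ends are printed above, were present at similar levels. Alpha 1 stood at 17.2 TPM in replicate 1 and 18.7 TPM in replicate 2, and alpha 2 at 16.9 and 16.8 TPM. Alpha 1 was thus slightly the higher form in both hearts, but the deposited credibility intervals of the forms overlapped in each heart, from 15.5 to 18.3 TPM against 15.2 to 17.8 TPM in replicate 1 and from 16.9 to 19.6 TPM against 15.3 to 17.7 TPM in replicate 2. Alpha 1 made up 51.6% ± 1.47 of the TPM of alpha 1 and alpha 2. This share was 49.7% ± 2.01 in the second quantification, where alpha 2 was higher in replicate 1 (20.9 against 19.5 TPM) and alpha 1 in replicate 2 (22.4 against 21.5 TPM). Which form was higher was therefore not resolved.

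Thra-203, which lacks an annotated stop, took 4.21 and 3.39 TPM, or 10.3% and 8.10% of Thra. Thra-208, a short partial coding model, took 0.15 TPM in replicate 1 and was listed at 0 in replicate 2. The last exon of alpha 2 overlaps exons of Nr1d1, a clock gene encoding a heme-binding repressor, by 263 bases on the opposite strand (chr11:98768157-98768419). All the capitals printed for alpha 2 and Thra-203 lie in this overlap, and alpha 1 has no base in it. Nr1d1 stood at 20.6 and 21.9 TPM. Whether counting used strand is not stated in the sources used here. If it did not, reads of the overlap cannot be assigned to one gene or the other.

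**Figure D2:**
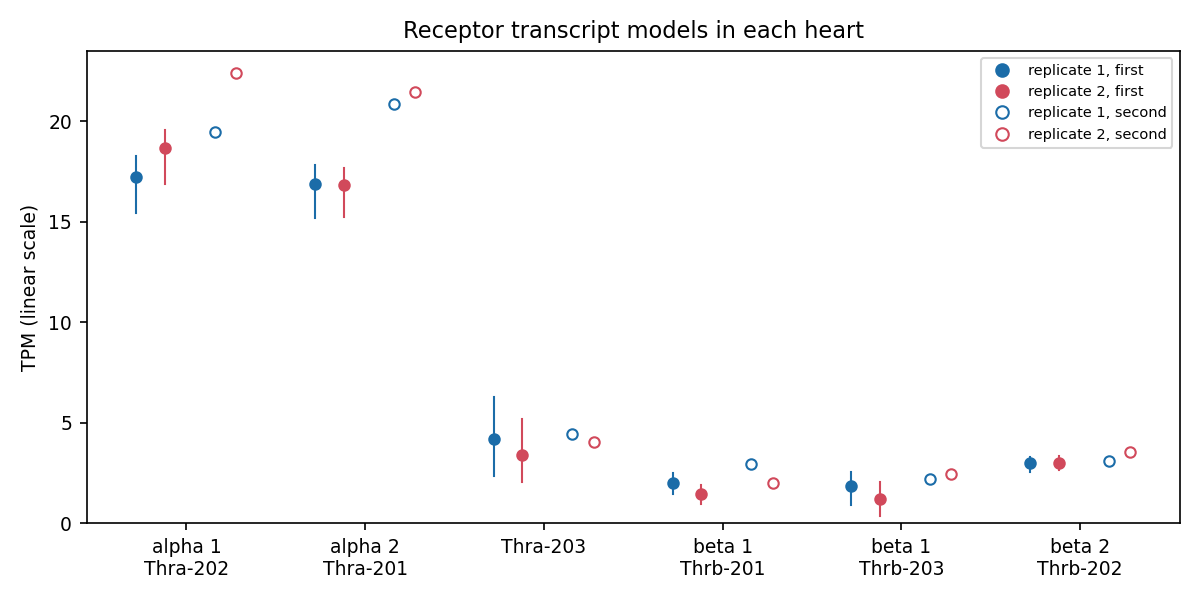
Level (TPM, linear axis) of the receptor transcript models in each heart. Filled points with bars are the first quantification and its deposited credibility interval, and open points are the second quantification, which has no interval. The intervals of alpha 1 and alpha 2 overlap in both hearts.

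Thrb was divided among more models, and the division depended on the quantification. The beta 1 product (461 residues) is encoded by Thrb-201, at 1.99 and 1.46 TPM, and by Thrb-203, at 1.85 and 1.20 TPM. The beta 2 product (475 residues), known from the pituitary, hypothalamus and retina, is encoded by Thrb-202, at 2.99 and 3.01 TPM. The beta 1 models made up 51.6% ± 6.58 of the TPM of beta 1 and beta 2 models, 59.0% ± 4.64 in the second quantification and 35.5% ± 5.59 by estimated counts, which favour long transcripts.

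Reads given to Thrb-202 need not come from the first exon of beta 2. Of its 6200 bases, 2204 lie in no other coding model of Thrb: 348 before the coding start, 325 in the coding sequence and 1531 after the coding end. Which of these bases the reads covered was not tested. Thrb-207, a partial model, took 7.54% and 17.7% of Thrb in replicates 1 and 2 and was listed at 0 in the second quantification. Thrb-205, a model of 375 bases, took 3.73% ± 0.0310 in the first and 24.1% ± 3.21 in the second. It had 3.00 and 3.10 counts in the first and 10.1 and 9.0 in the second. Across the receptor models, alpha 2 made up 41.0% ± 0.252 of the TPM of alpha 1, alpha 2, beta 1 and beta 2 together, and 42.2% ± 1.20 in the second quantification.

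All 3 retinoid X receptor genes, whose products pair with thyroid hormone receptors on DNA, were above 1 TPM. Rxrg was the highest at 23.1 ± 0.962 TPM, Rxra stood at 16.2 ± 1.94 and Rxrb at 14.9 ± 0.622. The log2 ratio of Rxra over Rxrb was 0.11 ± 0.11, barely more than its SD. Each partner gene was lower than Thra and higher than Thrb.

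The deiodinases were the lowest of the 8 genes. Dio2 (chr12:90724552-90738438), which makes triiodothyronine inside cells, stood at 0.22 TPM in replicate 1 and 0.31 TPM in replicate 2 (0.265 ± 0.0636), from 41 and 63 counts. Thra exceeded it by 6.84 ± 0.23 on the log2 scale of TPM + 0.1, which understates ratios over low genes. Dio2 had more counts than Dio1 and Dio3 in both hearts and in both quantifications, with 44 and 66 in the second.

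Dio1 (chr4:107291465-107307169), the deiodinase typical of liver and kidney, had 1 count in replicate 1 and 0 in replicate 2, or 0.02 and 0 TPM. The deposited posterior mean TPM of Dio1 was 0.50 and 0.45, summed over 8 transcript models, and so lay above Dio2, whose posterior mean was 0.22 and 0.31. The TPM of Dio1 thus depends on which estimate is used, but the posterior mean lay above 0 also for genes without counts, such as Alb (0.27 and 0.26). By counts and by TPM of both quantifications Dio2 was the higher in each heart. Dio3 (chr12:110279068-110281097), which inactivates the hormone, had 0 and 2 counts, or 0 and 0.04 TPM. Both counts were given to the model Dio3-201 and none to Dio3-202. Dio1 and Dio3 were thus at or below 3 counts, and a difference between them was not detectable at this depth. Dio3os, the noncoding neighbour of Dio3, had 1 count in each heart.

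All 10 genes of selenoprotein synthesis and deiodinase turnover were above 1 TPM in both hearts. March6, a ubiquitin ligase of the endoplasmic reticulum that acts on the Dio2 protein, led with 35.2 ± 0.948 TPM, followed by Pstk, a kinase of selenocysteine synthesis, at 18.7 ± 0.976 TPM. Sepsecs, the enzyme of the last step of selenocysteine synthesis, was the lowest at 1.99 ± 0.219 TPM. Each of these genes was therefore higher than each deiodinase gene.

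Slc16a10 (chr10:40033532-40142258, minus strand), which encodes a transporter of aromatic amino acids and thyroid hormone, stood at 8.37 TPM in replicate 1 and 8.23 TPM in replicate 2 (8.30 ± 0.0990), from 1006 and 1139 counts. The model Slc16a10-201 (512 residues) took 53.8% ± 5.58 of the gene's TPM and 74.7% ± 4.15 of its counts, and Slc16a10-202 (320 residues) took 39.4% ± 4.30 of the TPM.

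Of 8 further transporter genes, 2 were at 1 TPM or more in both hearts, and 3 in the second quantification. Slc3a2, the heavy chain that amino acid transporters share, was the highest at 13.9 ± 1.34 TPM (23.9 ± 1.14 in the second quantification), followed by Slc7a5, a light chain that pairs with it, at 1.62 ± 0.163 TPM. Slc10a1 and Slc17a4, known from liver and from intestine and kidney, had no counts. None of 4 hormone-binding protein genes reached 1 TPM: Ttr stood at 0.205 ± 0.0636 TPM and Crym at 0.20 ± 0.0566, while Serpina7 and Alb had no counts. Slc16a10 was thus second only to Slc3a2 among the transporter genes examined.

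Ncor1 (chr11:62316426-62458541, minus strand), the corepressor that thyroid hormone receptors bind in the absence of hormone, stood at 44.3 TPM in replicate 1 and 44.95 TPM in replicate 2 (44.6 ± 0.460), from 5049 and 5485 counts. The 4 corepressor complex genes set beside it were all above 1 TPM in both hearts. Tbl1xr1, an adaptor, was the highest of them at 24.3 ± 0.587 TPM, Hdac3, the histone deacetylase of the complex, stood at 14.4 ± 0.658 and Gps2, a small subunit, had the lowest mean at 9.38 ± 1.06. Ncor1 exceeded each of the 4 in both hearts.

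No model dominated Ncor1, which has 25 annotated transcripts. The partial model Ncor1-212 led by TPM, with 17.8% ± 1.04, followed by Ncor1-201 (2454 residues) with 15.0% ± 1.36. By estimated counts Ncor1-201 led with 38.5% ± 3.36. Ncor1-211, Ncor1-210 and Ncor1-213 took 11.2%, 11% and 10.3% of the TPM. On the opposite strand, Ncor1 shares 82 exonic bases with Pigl and 1 with Ttc19. Ttc19 had 970 and 1104 counts and Pigl 81 and 72, all fewer than Ncor1.

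Thrap3 (chr4:126164082-126202760, minus strand), named for its association with thyroid hormone receptors and known for roles in transcription and splicing, stood at 39.1 TPM in replicate 1 and 38.7 TPM in replicate 2 (38.9 ± 0.276), from 3336 and 3556 counts. Thrap3-201 (951 residues) took 54.4% ± 0.458 of its TPM and 89.2% ± 0.674 of its counts. Thrap3-217, a partial model of 339 bases, took 24.6% ± 0.661 of the TPM from 77.1 and 79.0 counts and was listed at 0 in the second quantification. There the short models Thrap3-206 and Thrap3-213 took 13.9% ± 0.229 and 11.7% ± 2.35. Division by a short effective length thus gave large TPM shares to models with few counts.

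All 16 coactivator and mediator genes were above 1 TPM in both hearts. Prmt1, a histone arginine methyltransferase, was the highest at 35.9 ± 2.32 TPM. By mean TPM of the first quantification Med16 came next at 18.5 ± 0.530 and Med23 last at 4.99 ± 0.403. Neither place held throughout: Bclaf1 exceeded Med16 in replicate 1 (20.4 against 18.9 TPM) and in the second quantification (21.7 against 19.6), where Med17 at 6.01 TPM lay below Med23 at 7.30. Thrap3 exceeded each of them by mean TPM in the first quantification.

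**Figure D3:**
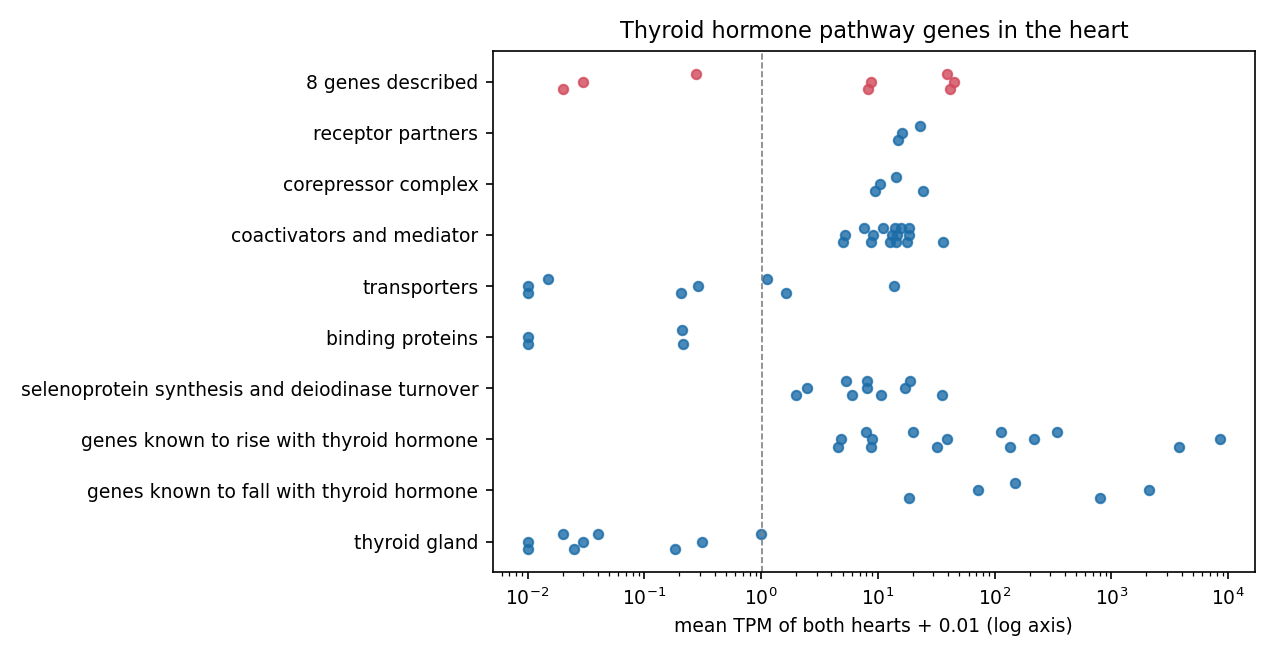
Mean TPM of both hearts plus 0.01 (log axis), with 1 point per gene, for the 8 genes described and for 9 lists of related genes. The dashed line marks 1 TPM. Receptor partners, corepressor and coactivator genes all lie above it, and the deiodinases, binding proteins and thyroid gland genes lie below it.

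The genes that the hormone is known to raise in heart or other tissues were all detected, with 14 of 14 above 1 TPM in both hearts. Myh6, the fast myosin heavy chain, was the highest, Atp2a2, the calcium pump of the sarcoplasmic reticulum, stood at 3801 ± 75.2 TPM, and Kcna5, a potassium channel, had the lowest mean at 4.54 ± 0.368. Of the genes known to fall, 5 of 5 were above 1 TPM, with Pln, the inhibitor of that pump, at 2092 ± 96.1 TPM, Myh7, the slow myosin, at 809 ± 48.4 and Adcy5, an adenylyl cyclase, at 18.7 ± 1.32. Myh6 and Myh7 are near-identical in places, so the division of their reads is uncertain. The second quantification put Myh7 at 1824 ± 34.2 TPM, 2.26 times the first, and Myh6 at 7599 ± 151 TPM. No hormone level was measured, so these values are levels and not responses.

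Transcripts of genes typical of the thyroid gland were low or absent. None of 9 such genes reached 1 TPM in both hearts. Tg, the hormone precursor, was the highest with 1.10 and 0.87 TPM, from 81 and 73 counts. Tshr stood at 0.48 and 0.13 TPM, from 48 and 19 counts, and Slc5a5 and Pax8 had no counts in either heart.

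None of these genes with enough counts differed by 2-fold between the 2 hearts. Between-heart log2 ratios (replicate 2 over replicate 1) were taken on TMM-scaled counts with 95% exact binomial intervals that cover counting error only, for genes whose mean reached 1 CPM. Of the 8 genes, 6 passed this minimum, and 0 of the 6 differed by 2-fold or more. Among all 12908 genes that passed, 0.294% had a value at least 2-fold higher in replicate 2, and 0.906% had one at least 2-fold higher in replicate 1. The median log2 ratio of the 6 genes was -0.01, and that of all genes 0.01. With 1 library per animal there is no replicate test, and with 2 hearts the smallest two-sided exact sign-flip p is 0.5.

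Thra had a log2 ratio of 0.00 (-0.07 to 0.08), Slc16a10 of 0.04 (-0.08 to 0.16), Ncor1 of -0.02 (-0.08 to 0.04) and Thrap3 of -0.05 (-0.12 to 0.02). Thrb was slightly lower in replicate 2, at -0.17 (-0.30 to -0.04). Dio2 had the widest interval, 0.48 (-0.11 to 1.08), which includes both no difference and a 2-fold one. Scaling by spike-in totals instead moved the median of all genes to -0.14 and Thrb to -0.31. Such scaling shifts all genes alike, so the value of Thrb relative to the median, -0.18, could hardly change from that with TMM. Thrb also stayed below 0 with DESeq2 size factors (-0.16) and library totals (-0.12), which likewise shift all genes alike. The counts of the second quantification, scaled by their totals and the TMM factors of the first, gave -0.11 for Thrb. The TPM of Thrb in the second quantification had the opposite order, with 12.7 in replicate 1 and 13.5 in replicate 2. The direction in Thrb therefore depended on the measure. The share of 2-fold calls that were higher in replicate 2 was 24.5% with TMM and 13.1% with spike-in totals.

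Dio2 is also known from brown fat, so its values are set beside fat markers. The brown fat marker Ucp1 had 4.83 TPM in replicate 1 and 3.65 TPM in replicate 2, Cidea at 15.6 and 15.5 and Elovl3 at 0.18 and 0.08, with the 3 summing to 20.6 and 19.2 TPM. Among adipocyte markers Cfd had 174 TPM in replicate 1 and 22.1 TPM in replicate 2, Adipoq at 25.0 and 4.05, Cidec at 17.3 and 3.22, Plin1 at 14.0 and 3.79 and Retn at 7.81 and 1.32. The other marker, Lep, was at 0.17 and 0.11 TPM. Dio2 had its higher value in the heart with the lower summed marker levels, but its log2 ratio of 0.48 (-0.11 to 1.08) includes no difference. Of the brown fat markers past the count minimum, Cidea had a ratio of -0.05 (-0.22 to 0.13) and Ucp1 of -0.44 (-0.72 to -0.16). The part of these cells in the level of Dio2 was not tested. Of the skeletal muscle markers, Tnni2 stood at 1.21 and 1.57 TPM and Mylpf at 1.45 and 1.04. Myog had no counts, and all 6 summed to 2.84 and 2.81 TPM.

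**Figure D4:**
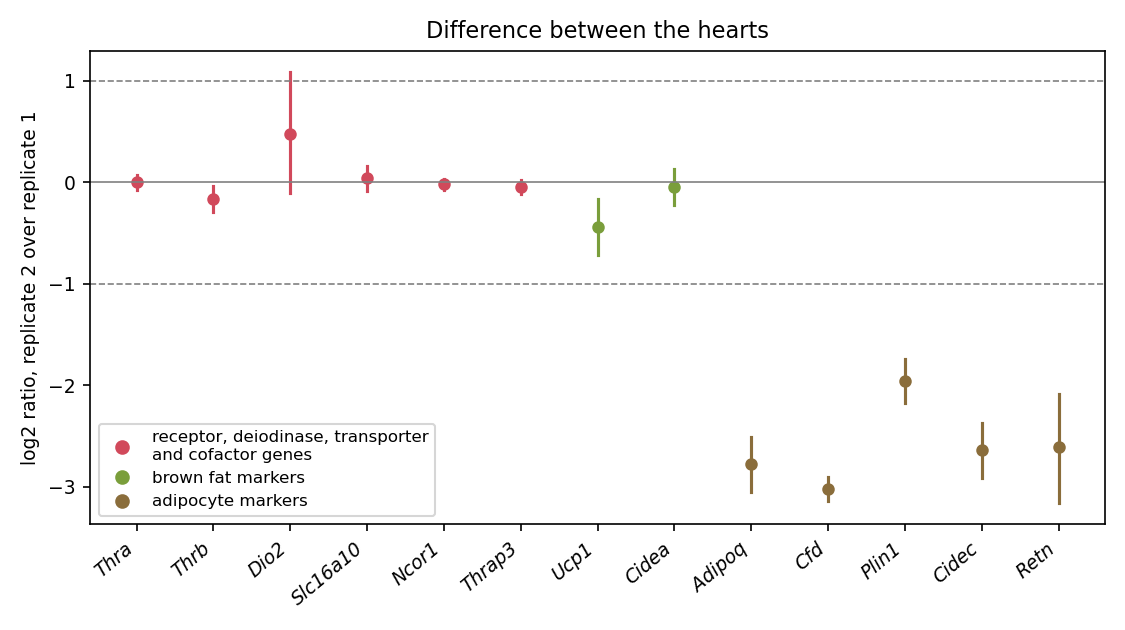
Log2 ratio of replicate 2 over replicate 1 (TMM-scaled counts) of the 6 genes past the count minimum and of brown fat and adipocyte markers past it, with bars for 95% exact binomial intervals (counting error only). Dashed lines mark 2-fold. The 6 genes lie between -0.17 and 0.48, and the 5 adipocyte markers lie beyond 2-fold.

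The second quantification gave higher TPM for the 5 genes above 1 TPM: 1.22 times the first for Thra, 1.502 for Thrb, 1.14 for Slc16a10, 1.41 for Ncor1 and 1.32 for Thrap3. The median ratio was 1.21 over the 10901 protein-coding genes at 1 TPM or more in both hearts, so a ratio above 1 was general. A difference of 1.5-fold or more was found for 15.8% of those genes and, among the 5, for Thrb. Estimated counts of Thrb differed less, at 1016 and 996 in the first quantification and 1109 and 1117 in the second. By mean TPM, the leading transcript was the same in both quantifications for 4 of the 5 genes, the exception being Thra.

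Gene models overlap several of these genes elsewhere. Thrb overlaps Gm48320, Gm24140 and Gm48321, Slc16a10 overlaps Gm25613 and Thrap3 overlaps Gm25323, in each case with no shared exonic base and no counts. Dio2 shares 100 exonic bases with Gm26512 on the opposite strand, which had 1 count in each heart. Gm12276, a pseudogene within Ncor1 with no shared exonic base, had 8 and 2 counts. Dio1 and Dio3 overlap no other annotated gene.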

How the data were processed

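Total RNA sequencing of 2 hearts was analysed from the authors' deposited tables. The authors deposited estimated counts and TPM per gene, with maximum likelihood and posterior mean estimates and credibility bounds of the TPM whose level is not given in the sources used here. The authors also deposited each transcript's percent of its gene (checked against shares computed from TPM), estimated counts and TPM in a first transcript table. The second quantification is another transcript table of estimated counts and TPM that the authors deposited. It was made straight from reads, and the first tables from a transcriptome alignment, per the deposited text files, which name mm10 and GENCODE M21. Column names are those of RSEM and kallisto. No source used here gives tools, versions, settings or the use of strand.

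Symbols were mapped to gene identifiers through the second table, and the second quantification was summed by gene. Forms of Thra and Thrb were assigned by their coding ends and starts in the annotation. The 26248 transfer RNA rows (3.0 and 1.85 counts) and the spike-ins (193998 and 236086 counts) stayed out of library sizes. Counts were rounded and scaled with TMM (edgeR 4.0.16, R 4.3.3), with DESeq2 1.42.0 size factors, library totals and spike-in totals as alternatives. A rounded count of 0 was set at 3 counts. Pair ratios used TPM + 0.1. No test between groups was possible. Intervals and the 3-count floor hold for counting error alone (no molecular identifiers mark independent molecules), and the spread between these samples may be technical. The ratio step was tested on simulated data. Python 3.11.15, numpy 2.4.6, pandas 2.3.3 and scipy 1.17.1 were used.

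The genes and lists were chosen with earlier results of these data known. Of each list, the 2 highest genes, the lowest and any past 2-fold are named, with transcripts at a mean share of 10% or more in either quantification, all coding Thra transcripts and all genes overlapping the 8. Some genes of the lists, and ratios to them, are not reported here.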

Additional observations from a re-analysis of the deposited data

How the results depend on the processing

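No paired analysis was possible because the labels name a single group. Of 104 recomputed values over 33 results, 75 kept their value within the spread between hearts, the counting interval or 1.5 times a count, and 29 moved. Leaving out either heart could not move a mean of 2 values beyond their SD, so those values were bound to be among the 75. The second quantification gave 50.3 TPM for Thra, 13.1 for Thrb, 9.45 for Slc16a10, 62.9 for Ncor1 and 51.3 for Thrap3. Posterior means gave 9.01 TPM for Thrb, 8.56 for Slc16a10, 46.0 for Ncor1, 40.3 for Thrap3, 0.475 for Dio1 and 0.055 for Dio3, which put Dio1 above Dio2. Genes without counts also had posterior means above 0. The log2 ratio of Thra over Thrb was 2.12 with a pseudocount of 1 and 1.94 in the second quantification. Thra over Dio2 was 7.25 with a pseudocount of 0.01 and 5.06 with 1. The share of alpha 1 was 49.7% in the second quantification and 49.3% by estimated counts, on the other side of equality. In alternatives chosen after seeing the data, the share of beta 1 was 59.0% in the second quantification and 35.5% by counts, the latter also on the other side of equality. Among 5 genes with several models, both hearts had 1 common leading transcript in 5 in the first quantification and in 3 in the second. Spike-in totals gave between-heart log2 ratios of -0.14 for Thra, -0.31 for Thrb, -0.10 for Slc16a10, -0.16 for Ncor1 and -0.19 for Thrap3, which turned the sign in Thra and Slc16a10. Library totals turned it in Ncor1 (0.03) and Thrap3 (0.004). Without a count minimum, 2154 genes passed 2-fold towards replicate 2 and 2704 towards replicate 1, against 38 and 117 with it. With a minimum of 5 CPM there were 8 and 41. Without a minimum genes with few counts enter, and a count of 0 was set at 3. A gene with 1 count in 1 heart and 0 in the other was therefore placed towards the heart with 0. Dio1, with 1 and 0 counts in replicates 1 and 2, had a log2 ratio of 1.45 towards replicate 2. The directions of the numbers without a minimum therefore cannot be read. For the other values that moved, the cause was not tested. Depth limits Dio1, Dio2 and Dio3 above all, and 2 hearts limit every SD.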
